A study of Mus musculus with 9 samples.

Results

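Collagens, laminins and other proteins of the extracellular matrix are encoded by the 41 mouse genes described here. They form a list of gene names, drawn up with earlier results of these data known but with no measured value in its rule, and all 41 were found among the 47729 Ensembl gene identifiers of the count table. They comprised 9 fibrillar members, 16 basement membrane members and 16 other matrix members. The fibrillar members were 6 chains of fibril-forming collagens and 3 fibril-associated chains. The basement membrane members were 5 collagen chains, 7 laminin chains, the nidogens Nid1 and Nid2, and the proteoglycans Hspg2 and Agrn. The other members were beaded-filament and network collagens, fibronectin, fibrillins, interstitial proteoglycans, matricellular proteins and crosslinking enzymes.

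RNA from whole retinas of C57Bl6/J background was sequenced in 9 bulk libraries, which form 3 groups of 3. Yap CKO retinas were taken at P60 from mice that were Yap flox/flox and carried Rax-CreERT2, a Cre recombinase that is active in Müller cells, the main glia of the retina, once 4-hydroxytamoxifen (4-OHT) is given. Control retinas were taken at P60 from Yap flox/flox mice without the Cre, and both of these groups had received 4-OHT at P10 by intraperitoneal injection. C57 retinas came from wild-type mice at P30, were re-analysed from an earlier series, and have neither a floxed allele nor 4-OHT in their labels. Each P60 library was made from 1 frozen retina, and nothing in the labels says whether the retinas of a group came from separate animals, so p-values measure the spread between these samples, which may be partly technical. The letters MNU stand in the names of all P60 libraries, and no label explains them. The genotype entry of the controls reads Yap CKO without a Cre, and they are called controls here after the design text.

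Each C57 library held 13760765 to 16808499 counts and each P60 library 34739679 to 37629264. Levels below are CPM, read counts scaled to library size with TMM factors over all 9 libraries. Fold changes are log2 values from edgeR's quasi-likelihood fit to the 6 libraries of a comparison, and a gene is said to have risen or fallen where the Benjamini-Hochberg adjusted p over all genes tested was under 0.05. Yap1, the targeted gene, stood at 67.4, 61.0 and 57.6 CPM in the controls and at 15.3, 21.5 and 24.3 CPM in the Yap CKO libraries (log2 -1.60, SE 0.166, adjusted p = 0.0327), and at 23.4 to 30.4 CPM in C57. Rod photoreceptor markers, which define the main cell type of this tissue, had a mean log2(CPM + 1) of 11.81 to 11.92 in C57 and of 5.66 to 9.62 at P60, lowest in Yap CKO 3. Yap CKO 3 also held 1319 CPM of 13 lens transcripts, against at most 30.9 CPM in any other library. The controls were all male by Xist and the Y-linked gene Ddx3y, as were Yap CKO 3 and C57 2, and the other libraries were female.

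Basement membranes are thin sheets in which collagen IV and laminin networks are tied together by nidogens and heparan sulfate proteoglycans. In the retina they form the inner limiting membrane, on which the endfeet of Müller cells rest, and they surround the vessels. Fibrillar collagens make up the fibres of looser connective tissue, and fibrils of collagen II, IX and V/XI form the vitreous gel, whose parts are made largely by the ciliary body and by the retina during growth. YAP is a transcriptional coactivator that binds DNA through TEAD factors, and matrix genes are among those it is known to regulate in other tissues.

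Per kilobase of exon, the matricellular glycoprotein Sparc, a collagen-binding protein, had the highest level of all members in every group, at 176 ± 37.8 CPM per kb in C57, 87.9 ± 2.31 in control and 61.8 ± 19.2 in Yap CKO (mean ± SD, n = 3). In C57 the next members were Col9a1, a chain of the vitreous collagen IX, at 5.87 ± 2.45 CPM per kb and Col4a2 at 5.47 ± 2.35, which did not differ beyond their spread. In the controls Lgals3, the galactoside-binding lectin galectin-3, followed at 36.9 ± 3.19 CPM per kb, and then Col18a1, the collagen XVIII chain whose end fragment is endostatin, at 26.4 ± 8.05. Fn1, Col4a2, Tnc, Agrn, Col4a1 and Lamc1 came next in the controls, between 6.89 and 11.1 CPM per kb. At the low end, Col1a1, Col15a1, Col5a2 and Col3a1 were at 0.0733 to 0.106 CPM per kb in the controls. Mean levels reached at least 10 CPM for 15 members in C57, 20 in control and 17 in Yap CKO, and stayed under 1 CPM for 5, 5 and 3 members.

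The make-up of the matrix signal differed more between C57 and the P60 groups than between the P60 groups. Basement membrane members made up 22.2% to 26.2% of the summed CPM of all members in C57 libraries, 40.1% to 42.6% in controls and 40.1% to 43.2% in Yap CKO. Sparc alone made up 54.4% to 58.2% in C57 and 19.8% to 25.9% at P60. Fibrillar members were a small part everywhere, from 2.69% to 5.84%. The sum over all members was 973 to 1459 CPM in C57, 1245 to 1539 CPM in controls and 880 to 1327 CPM in Yap CKO, so the groups overlapped in the total.

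**Figure D1:**
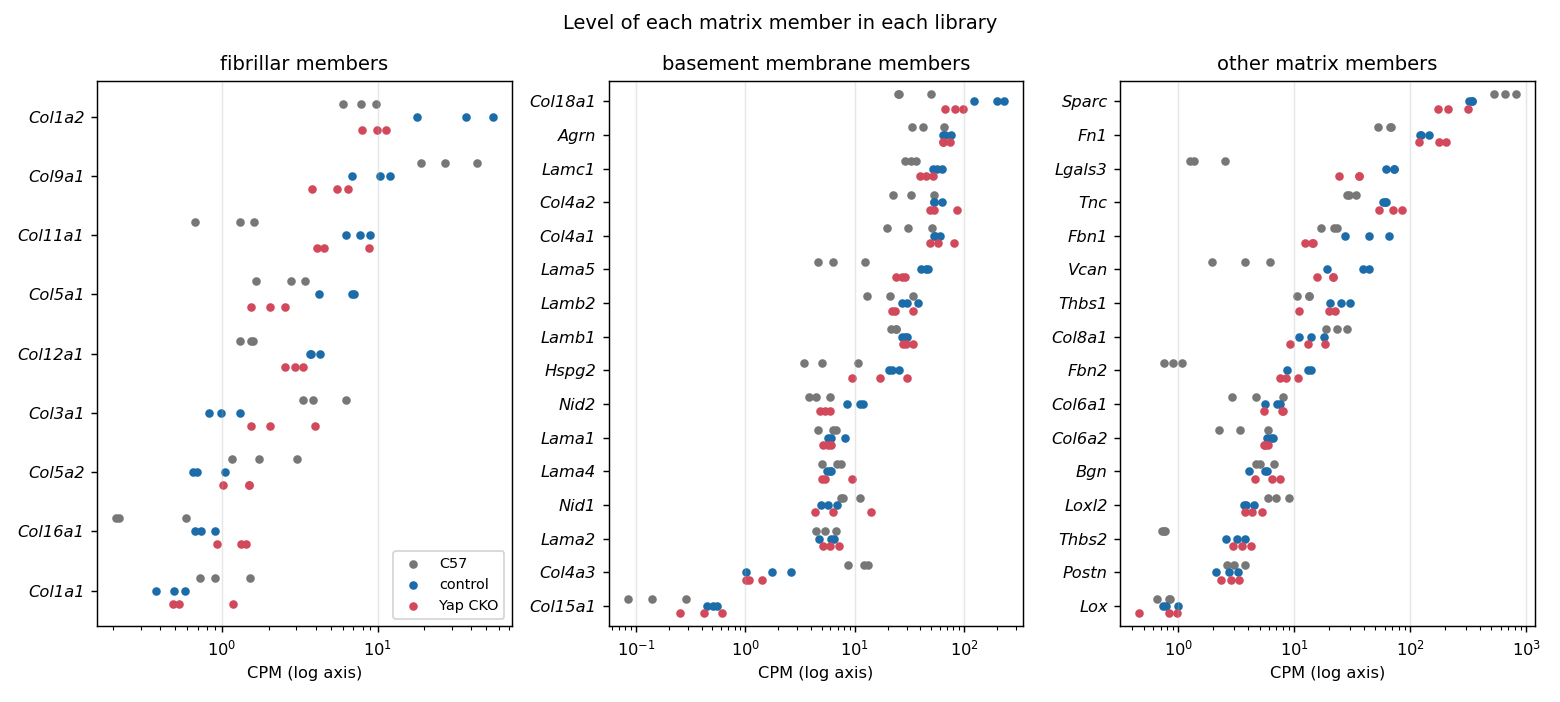
CPM of each member on a log axis, by class, with 1 point for each of the 9 libraries, coloured by group. Sparc is the highest member within each library, though its points in Yap CKO 1 and 2 (174 and 213 CPM) lie below that of Col18a1 in control 1 (234 CPM). Lgals3 and Fbn2 separate C57 from the P60 libraries most widely, and the Yap CKO points of Col5a1, Lama5, Nid2, Fbn1 and Lgals3 lie to the left of the control points without overlap.

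Yap CKO was compared with control to ask what the deletion of Yap in Müller cells changes at P60. The 2 groups also differ in the Cre transgene itself and in sex. All controls were male, and Yap CKO 3 was the only male of its group. Of the 41 members, Lama5 fell, none rose, and 40 did not pass the test. Over all 16539 genes tested, 0.181% fell and 0.0181% rose. In whole retinas, fewer cells of a type and less RNA per cell cannot be told apart. Lama5 (ENSMUSG00000015647, chromosome 2, 180176373 to 180225859, minus strand, GRCm38) encodes the laminin alpha 5 chain, found in the basement membranes of the inner limiting membrane and of vessels. It stood at 46.4, 44.7 and 40.6 CPM in controls 1, 2 and 3 and at 23.95, 29.1 and 27.3 CPM in Yap CKO 1, 2 and 3. All Yap CKO libraries were below all controls, and the difference was 1.64-fold (log2 -0.71, SE 0.0936, adjusted p = 0.0496 by edgeR). In C57 Lama5 stood at 12.5, 6.35 and 4.65 CPM, below every P60 library.

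The call of Lama5 lay at the threshold. With 1 library left out in turn its log2 fold change stayed between -0.79 and -0.63, while its adjusted p ranged from 0.0144 without Yap CKO 3 to 0.194, and it passed only without Yap CKO 3. It did not pass with RLE or upper-quartile scaling or with a filter of 1 CPM in 3 libraries, while DESeq2 gave it an adjusted p of 1.15e-07. The authors' deposited table gives Lama5 a log2 fold change of -0.70 and an adjusted p of 0.157.

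The 250 bases upstream of the Lama5 start site are shown because Lama5 was the member that passed, with those of Col5a1 for comparison, the fibrillar member with the smallest p. Both come from RefSeq on GRCm38.p6 (Lama5 at chr2:180225860-180226109, minus strand, and Col5a1 at chr2:27886175-27886424, plus strand), are written 5′ to 3′, and overlap no annotated exon.
Lama5: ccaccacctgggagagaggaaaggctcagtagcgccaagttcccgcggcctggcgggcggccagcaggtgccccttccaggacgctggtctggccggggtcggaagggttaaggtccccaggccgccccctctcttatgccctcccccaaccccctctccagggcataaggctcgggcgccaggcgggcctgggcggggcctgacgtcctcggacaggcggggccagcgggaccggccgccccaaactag
Col5a1: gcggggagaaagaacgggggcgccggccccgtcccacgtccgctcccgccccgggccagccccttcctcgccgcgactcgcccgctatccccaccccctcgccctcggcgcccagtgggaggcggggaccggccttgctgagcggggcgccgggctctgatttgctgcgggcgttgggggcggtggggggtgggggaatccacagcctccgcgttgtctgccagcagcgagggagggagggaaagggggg
No capitals are used, since neither window held a searched motif. Both are rich in G and C, at 72.4% for Lama5 and 76.4% for Col5a1, against a median of 52.4% over all windows of the table.

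The members with the next smallest p in this comparison were Nid2, Lgals3, Col5a1, Fbn1, Col18a1, Col1a2 and Col9a1. Each was lower in all 3 Yap CKO libraries than in all 3 controls, and none passed the adjusted threshold. Nid2, the nidogen that links laminin to collagen IV, stood at 11.9, 11.1 and 8.47 CPM in the controls and at 5.91, 4.81 and 5.32 CPM in Yap CKO (log2 -0.97, SE 0.153, adjusted p = 0.0619). The Yap CKO libraries of Nid2 lay within the range of C57, at 5.95, 3.82 and 4.44 CPM. Lgals3 stood at 61.6, 71.7 and 72.1 CPM in the controls and at 24.1, 36.0 and 35.9 CPM in Yap CKO (log2 -1.10, SE 0.168, adjusted p = 0.0647). Its C57 libraries were far below both, at 2.51, 1.37 and 1.25 CPM.

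Col5a1 encodes the alpha 1 chain of collagen V, which starts fibril assembly. It stood at 6.84, 7.01 and 4.198 CPM in the controls and at 1.53, 2.03 and 2.55 CPM in Yap CKO (log2 -1.56, SE 0.259, adjusted p = 0.0647). Col9a1 stood at 11.96, 10.4 and 6.85 CPM in the controls and at 5.50, 3.80 and 6.48 CPM in Yap CKO (log2 -0.88, SE 0.255, adjusted p = 0.151). The highest Yap CKO library and the lowest control of Col9a1 were nearly level.

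Fbn1, Col18a1 and Col1a2 varied among the controls. Fbn1, the microfibril protein fibrillin-1, which also builds the zonule that holds the lens, was at 65.9, 43.5 and 27.3 CPM in controls 1, 2 and 3 and at 12.3, 14.3 and 14.6 CPM in Yap CKO (log2 -1.73, SE 0.322, adjusted p = 0.0982). Col18a1 was at 234, 198 and 123 CPM in the controls and at 66.9, 83.2 and 98.0 CPM in Yap CKO (log2 -1.16, SE 0.265, adjusted p = 0.125). Col1a2, a chain of collagen I, was at 55.0, 37.2 and 17.995 CPM in the controls and at 7.93, 11.3 and 9.86 CPM in Yap CKO (log2 -1.92, SE 0.435, adjusted p = 0.131). In each of these genes control 1 was the highest control and control 3 the lowest, and no Yap CKO library reached control 3.

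In the other direction, Col3a1, Col5a2 and Col16a1 had an unadjusted p under 0.05 and higher levels in Yap CKO. Col3a1, the single chain of collagen III, stood at 1.31, 0.830 and 0.982 CPM in the controls and at 1.53, 3.98 and 2.04 CPM in Yap CKO (log2 1.28, SE 0.382, adjusted p = 0.158). All of these are fibrillar members, as are Col5a1, Col1a2, Col9a1 and Col12a1 on the lower side, so the class held differences in both directions. Col5a2, the other chain of the common collagen V trimer, was at log2 0.75 (adjusted p = 0.202), opposite in sign to Col5a1.

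By class, the median log2 fold change of Yap CKO against control was -0.39 over the 9 fibrillar members, -0.23 over the 16 basement membrane members and -0.11 over the 16 other members, against 0.01 over all genes tested. The fibrillar median was the value of Col11a1 (SE 0.308, adjusted p = 0.559). Within that class the median was 0.10 over the 6 fibril-forming chains and -0.40 over the 3 fibril-associated chains. At an unadjusted p under 0.05, 3 members were higher and 11 lower (8.59% and 9.25% of all genes), and the Yap CKO and control libraries did not overlap, on the scale of these 6 libraries, for 2 members on the higher side and 11 on the lower (12.8% and 12.2% of all genes). The 4 basement membrane members lower without overlap were Col18a1, Lama5, Lamc1 and Nid2, and the 4 fibrillar ones were Col1a2, Col5a1, Col9a1 and Col12a1. Sparc (log2 -0.51, adjusted p = 0.274) was among the other 3, with Fbn1 and Lgals3.

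The collagen IV chains, most laminins and the vessel-associated proteoglycan perlecan (Hspg2) were not among them. Col4a1 was at log2 0.17 (SE 0.179) and Col4a2 at 0.16 (SE 0.230). Lamb1, the beta chain of laminin-111, was at log2 0.08 (SE 0.0953), Lama2 at 0.10 and Agrn, the heparan sulfate proteoglycan agrin, at -0.03 (SE 0.0849). Agrn stood at 65.7, 41.8 and 33.1 CPM in C57, at 75.4, 64.7 and 67.7 CPM in the controls and at 63.9, 64.3 and 74.5 CPM in Yap CKO, with 1 C57 library inside the range of the others. Hspg2 was at log2 -0.27 with an SE of 0.425, since its Yap CKO libraries ran from 9.40 to 30.1 CPM. Fn1, fibronectin, stood at 144, 123 and 121 CPM in the controls and at 119, 176 and 202 CPM in Yap CKO (log2 0.36, SE 0.191, adjusted p = 0.383). The groups overlapped for all of these.

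The number of members called in this comparison depended on the tool and on single libraries. DESeq2 called 9 members lower (Col1a2, Col5a1, Col9a1, Col18a1, Lama5, Nid2, Fbn1, Vcan and Lgals3) and Col3a1 higher, while it called 3.38% of all genes lower and 2.18% higher. Without Yap CKO 3, edgeR called 7 members lower (Col5a1, Col11a1, Lama5, Lamc1, Nid2, Sparc and Lgals3) and 4.86% of all genes lower. Without control 3 it called 5 lower (Col1a2, Col5a1, Col18a1, Nid2 and Fbn1) and 0.303% of all genes. Without a filter on low counts it called 4 (Col5a1, Lama5, Nid2 and Lgals3) and 0.952% of all genes, and with the rod level as a covariate 7 (Col5a1, Lama5, Lamc1, Nid2, Sparc, Thbs1 and Lgals3) and 5.44% of all genes. No member was called with limma-voom or with sex as a covariate (Yap CKO 3 is the only male of its group), against 0.0846% and 0.145% of all genes lower. The authors' deposited table holds 305 genes with a p of at most 0.0489 and a fold of at least 1.5, of which 75.7% are lower in Yap CKO than in control, so it gives no value for most members. The authors' deposited table lists 8 members, all lower, and gives 5 of them (Col18a1, Nid2, Fbn1, Col1a2 and Lgals3) an adjusted p under 0.05. The name of that table also carries a cut on expression level. Col3a1 (log2 1.28 by edgeR) and Col5a1 (log2 -1.56), both at low levels, are not in it. The listed members thus do not show the direction of low-level members.

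**Figure D2:**
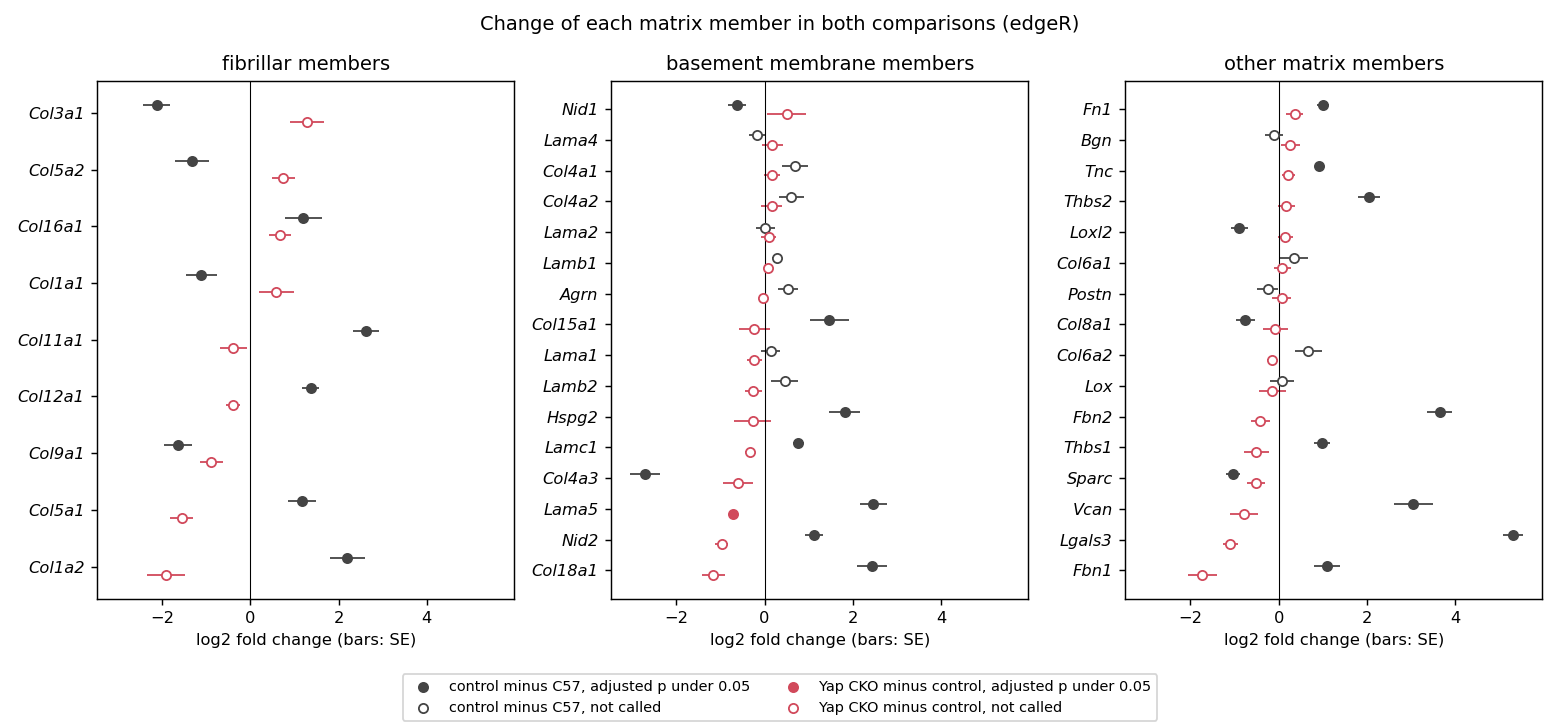
Log2 fold change of each member, by class, for control minus C57 (dark) and Yap CKO minus control (red), with bars for the SE of the edgeR fit and filled symbols where the adjusted p was under 0.05. Lama5 is the only filled red symbol, while 28 dark symbols are filled, and the control libraries enter both comparisons.

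Fbn1, Col18a1, Col1a2 and Vcan were higher in controls 1 and 2 than in every Yap CKO library. Some, but not all, listed markers of tissue next to the retina shared this pattern. Optc, which encodes the vitreous protein opticin made by the ciliary epithelium, stood at 77.0, 82.2 and 32.6 CPM in controls 1, 2 and 3 and at 19.4, 15.01 and 29.5 CPM in Yap CKO. Fmod, a small collagen-binding proteoglycan on the fibroblast list, stood at 59.3, 42.8 and 17.5 CPM in the controls and at 3.98, 3.41 and 5.42 CPM in Yap CKO. Of the 8 ciliary epithelium markers, none was called and 5 were lower at an unadjusted p under 0.05 (9.25% of all genes). The median log2 fold change of the 8 was -0.71. Their summed level was 86.8 to 167 CPM in the controls and 71.95 to 90.1 CPM in Yap CKO. Of the 8, 7 had negative and 1 positive log2 fold changes. Aqp1, the positive one, stood at 24.7, 7.39 and 13.2 CPM in the controls and at 32.9, 17.0 and 3.58 CPM in Yap CKO. Zic2, at 10.4, 8.25 and 6.26 CPM against 7.57, 9.13 and 7.52 CPM, overlapped between the groups, as did Aqp1. The 8 fibroblast and meningeal markers summed to 74.3, 55.3 and 23.3 CPM in the controls and to 6.17, 5.78 and 8.32 CPM in Yap CKO. Almost all of that sum was Fmod and Ogn. Of the 6 markers of this list that were tested, 3 had positive and 3 negative log2 fold changes, with a median of -0.21 and no call, and the defining fibroblast genes Dcn, Lum and Dpt were each at most 0.694 CPM in every P60 library. The part of these tissues in the levels of the members was not tested.

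Some members stood apart in a single library. Yap CKO 3 had the highest level of the 6 P60 libraries for 7 of the 16 basement membrane members, as had control 1 for 7 others (43.8% each). Those highest in Yap CKO 3 included Col4a1 (80.5 CPM against 49.0 to 59.8 in the others), Col4a2 (86.1 against 48.8 to 63.5), Nid1 (14.1 against 4.33 to 6.86) and Lama4, the laminin chain of endothelium (9.46 against 5.05 to 6.06). Yap CKO 3 was also highest for 9 of 10 endothelium markers and for 7 of 9 mural cell markers, while control 1 was highest for none of these markers. Over the 14167 genes of at least 1 CPM in 3 P60 libraries, Yap CKO 3 was highest for 25.3% and control 1 for 17.1%. Yap CKO 3 stood apart for other cell types too, with lens transcripts at 1319 CPM in sum and rod markers at 1183 CPM in sum, against 4512 to 24638 CPM of rod markers in the other P60 libraries. Kdr, a receptor for vascular endothelial growth factor, was at 452 CPM there and at 212 to 265 CPM in the other P60 libraries. Flt1, the endothelium marker that was not highest there, was at 174 CPM in Yap CKO 3 and at 180 to 196 CPM in the controls. Without Yap CKO 3 the log2 fold change of Yap CKO against control was -0.06 for Col4a1, -0.14 for Col4a2, -0.12 for Nid1 and -0.17 for Lama4, each of which had been positive with it. Yap CKO 1 was the lowest P60 library for 21 of the 41 members (51.2%) and for 19.2% of the same 14167 genes. The part of vessel, lens or rod content in these levels was not tested.

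**Figure D3:**
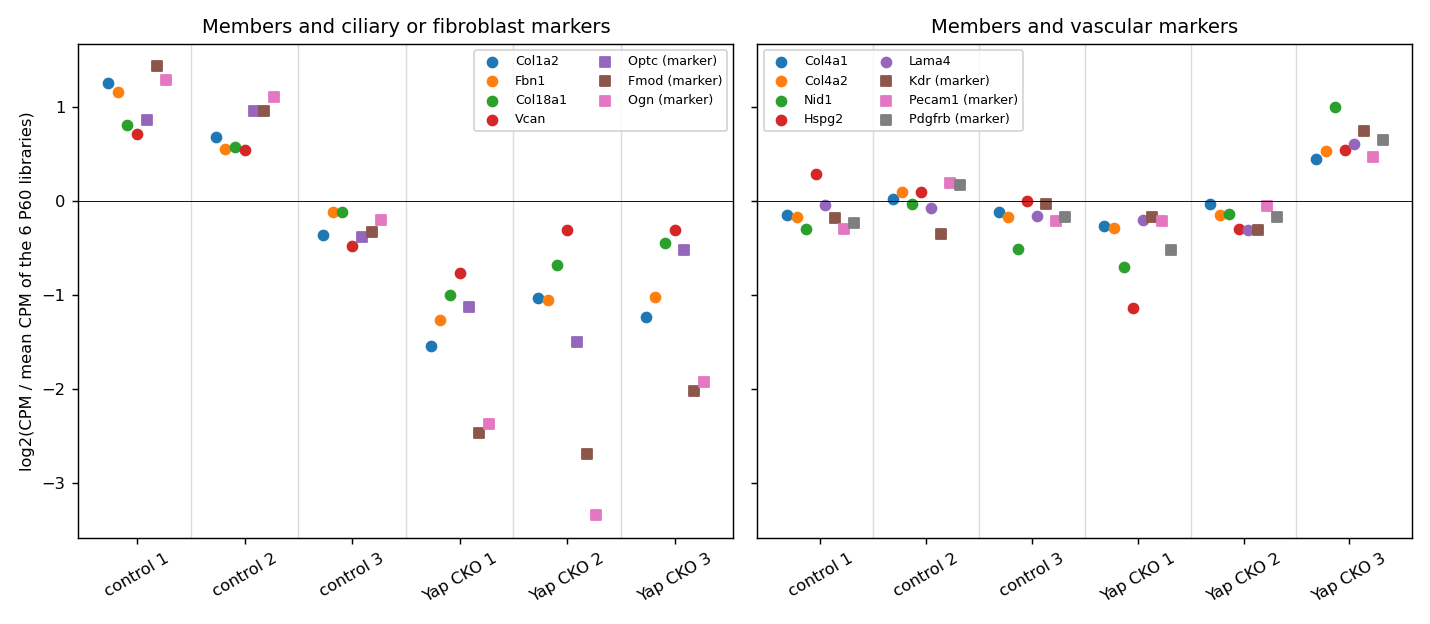
Log2 ratio of CPM to the mean of the 6 P60 libraries for named members (circles) and marker genes (squares), with 1 column per library. Listed markers without the patterns below, such as Aqp1 and Flt1, are not shown. On the left, controls 1 and 2 are high for Col1a2, Fbn1, Col18a1 and Vcan and for Optc, Fmod and Ogn, with control 3 between them and Yap CKO except for Vcan, where it lies within the Yap CKO range, and on the right Yap CKO 3 is highest for Col4a1, Col4a2, Nid1, Hspg2 and Lama4 and for Kdr, Pecam1 and Pdgfrb.

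The comparison of control with C57 retinas sets P60 floxed retinas given 4-OHT against wild-type retinas at P30. Age, the floxed allele, 4-OHT, whatever the letters MNU stand for, the source series and the depth differ together, so they cannot be told apart. All controls were male, while C57 2 was the only male of its group, so sex differs in part as well. Of the 41 members, 19 rose, 9 fell and 13 did not pass, where 23.1% of the 15820 genes tested rose and 22.4% fell. The median log2 fold change of the members was 0.67, against 0.03 over all genes. The libraries did not overlap for 21 members on the higher side and 9 on the lower, against 30.3% and 28.2% of all genes. With each library left out in turn, 15 of the 19 and 5 of the 9 passed in all 6 fits. The calls of Col5a1, Col15a1, Col16a1, Fbn1, Col1a1, Col5a2, Col8a1 and Nid1 did not.

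Lgals3 had the largest change. It is expressed by macrophages and reactive glia in many injured tissues, and its C57 levels of 2.51, 1.37 and 1.25 CPM stood against 61.6, 71.7 and 72.1 CPM in the controls (39.7-fold, log2 5.31, SE 0.238, adjusted p = 1.16e-05). Of the 12 microglia and macrophage markers, 11 were tested, 2 rose and 3 fell (18.2% and 27.3%, against 23.1% and 22.4% of all genes). The summed level of the 12 was 108 to 121 CPM in C57 and 118 to 137 CPM in the controls. Cd68, a lysosomal protein of phagocytes, was 1 of those that rose (log2 3.39, adjusted p = 2.79e-05), while Aif1, a marker of microglia, was at 0.433 to 1.09 CPM in the C57 and control libraries and did not pass. P2ry12 and Tmem119, also on the list, had means of 5.69 and 3.02 CPM in C57 and of 0.268 and 0.488 CPM in control. Of the 11 markers tested, 4 had positive and 7 negative log2 fold changes, with a median of -0.07. The part of these cells in the Lgals3 level was not tested.

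Fbn2, the fibrillin of developing tissue, stood at 0.754, 1.08 and 0.902 CPM in C57 (9 to 15 reads) and at 13.8, 13.2 and 8.54 CPM in the controls (log2 3.65, SE 0.276, adjusted p = 7.03e-05). Vcan, the hyaluronan-binding proteoglycan versican, stood at 1.93, 3.75 and 6.18 CPM in C57 and at 43.8, 39.0 and 19.2 CPM in the controls (log2 3.05, SE 0.438, adjusted p = 0.00110). Fn1 stood at 67.8, 67.3 and 52.6 CPM in C57 and at 144, 123 and 121 CPM in the controls (log2 1.01, SE 0.136, adjusted p = 0.000800). None of these overlapped between the groups, and Fn1 had the narrowest spread of them.

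Tnc and Thbs2 are matricellular proteins, which sit in the matrix and modulate how cells attach. Tnc, tenascin-C, was at 34.3, 28.6 and 29.8 CPM in C57 and at 57.7, 61.7 and 60.4 CPM in the controls (log2 0.93, SE 0.112, adjusted p = 0.000494). Thbs2, thrombospondin 2, was at 0.754, 0.721 and 0.764 CPM in C57 (9 to 11 reads) and at 3.71, 2.59 and 3.22 CPM in the controls (log2 2.05, SE 0.244, adjusted p = 0.000462). Thbs1 also rose (log2 0.98, adjusted p = 0.00319). Sparc went the other way, from 815, 657 and 529 CPM in C57 to 337, 339 and 323 CPM in the controls (log2 -1.03, SE 0.161, adjusted p = 0.00158). Periostin (Postn) was at log2 -0.25 and did not pass.

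Among basement membrane members, 6 rose, 2 fell and 8 did not pass, where 23.1% of all genes rose and 22.4% fell. Lama5, whose C57 and control levels are given above, rose 5.54-fold (log2 2.47, SE 0.313, adjusted p = 0.000626). Col18a1 stood at 50.5, 24.7 and 25.2 CPM in C57, below all controls, and rose 5.43-fold (log2 2.44, SE 0.340, adjusted p = 0.000956). Hspg2 rose by log2 1.82 (adjusted p = 0.00446) and Nid2 by 1.12 (adjusted p = 0.00403). Lamc1, the gamma chain shared by most laminins, stood at 36.5, 33.0 and 28.8 CPM in C57, at 62.6, 56.3 and 52.0 CPM in the controls and at 39.3, 44.9 and 52.1 CPM in Yap CKO, and rose by 0.77 from C57 to control (adjusted p = 0.00225). Col15a1 rose too (log2 1.47, adjusted p = 0.0289), from 1, 4 and 2 reads in the C57 libraries, so its size is poorly determined. Nid1 fell (log2 -0.63, adjusted p = 0.0395), opposite to Nid2.

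Col4a3 encodes the alpha 3 chain of collagen IV, which joins the alpha 4 and alpha 5 chains in a separate network. It had the largest decrease, from 8.72, 12.2 and 13.3 CPM in C57 to 2.62, 1.01 and 1.74 CPM in the controls (6.54-fold lower, log2 -2.71, SE 0.335, adjusted p = 0.000556). The other basement membrane members did not pass. The laminin alpha chains Lama1, Lama2 and Lama4 lay between log2 -0.17 and 0.14, and the beta chains Lamb1 and Lamb2 at 0.27 (adjusted p = 0.0726) and 0.46. Leaving out C57 1, the C57 library with the highest Col4a1, Col4a2 and Agrn, brought Col4a1, Col4a2, Lamb1, Lamb2, Agrn, Col6a1 and Col6a2 past the threshold, while 28.8% of all genes rose.

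Among fibrillar members, 5 rose, 4 fell and all 9 passed, where 23.1% of all genes rose and 22.4% fell. Col11a1, the alpha 1 chain of collagen XI, stood at 0.670, 1.30 and 1.60 CPM in C57 (8 to 23 reads) and at 8.92, 7.72 and 6.26 CPM in the controls (log2 2.62, SE 0.290, adjusted p = 0.000342). Col1a2 rose by log2 2.20 (adjusted p = 0.00316), Col12a1 by 1.37, Col16a1 by 1.20 (from 3 to 7 reads in C57) and Col5a1 by 1.17. Col3a1 stood at 6.29, 3.32 and 3.82 CPM in C57, above all controls, and fell by 2.13 on the log2 scale (SE 0.301, adjusted p = 0.00103). Col9a1 stood at 43.3, 19.0 and 26.9 CPM in C57 and fell by 1.64 (SE 0.321, adjusted p = 0.00454). Col5a2 fell by 1.32 and Col1a1 by 1.12 (adjusted p = 0.0226 and 0.0328).

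In the same comparison all 14 rod markers fell (median log2 -3.14), 8 of 10 Müller cell markers fell and 2 rose (median -1.51), and 6 of 8 ciliary epithelium markers rose and 1 fell (median 1.49). Of the 10 endothelium markers 2 rose and 2 fell (median 0.16), and none of the 9 mural cell markers passed (median -0.37). Over all genes tested here, 23.1% rose and 22.4% fell. CPM values are relative to the whole library, and the part of these shifts in the members' changes was not tested.

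Yap CKO retinas were also set against C57, where 20.3% of 15840 genes rose and 20.2% fell. Col15a1 did not pass the count filter. Of the 40 members tested, 11 rose, 6 fell and 23 did not pass, with a median log2 fold change of 0.30 against 0.02 over all genes. The libraries did not overlap for 13 members on the higher side and 6 on the lower (28.1% and 26.8% of all genes). Without C57 1 the number that rose went from 11 to 18, and the share of all genes that rose was 25.1%. With each library left out in turn, 9 of the 11 and 3 of the 6 passed in all 6 fits, and the calls of Col12a1, Col16a1, Col8a1, Fbn1 and Loxl2 did not. This comparison shares the C57 libraries with the preceding one and the Yap CKO libraries with the first, so its values are given side by side with theirs and not counted as a separate finding.

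Of the members already described, Lgals3 was at log2 4.2 against C57 in Yap CKO and at 5.31 in control, Lama5 at 1.74 and 2.47, Col18a1 at 1.26 and 2.44, and Vcan at 2.26 and 3.05. Nid2 was at 0.14 in Yap CKO (adjusted p = 0.647) and at 1.12 in control. Col1a2 was at 0.26 (adjusted p = 0.386) and 2.20, and Col5a1 at -0.40 (adjusted p = 0.337) and 1.17. Fbn1 was at -0.64 in Yap CKO, where it fell (adjusted p = 0.0173), and at 1.10 in control, where it rose. The fall of Fbn1 passed in 3 of 6 fits with a library left out (not without C57 2, Yap CKO 1 or Yap CKO 2) and did not pass with all 9 libraries in 1 fit. Fn1 was at 1.36 and 1.01, Tnc at 1.13 and 0.93, Thbs2 at 2.21 and 2.05, Fbn2 at 3.22 and 3.65, and Col11a1 at 2.22 and 2.62. Sparc was at -1.55 and -1.03, Col9a1 at -2.54 and -1.64, and Col4a3 at -3.32 and -2.71.

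Loxl2, a lysyl oxidase that crosslinks collagen IV, fell in both comparisons with C57. It stood at 6.87, 5.91 and 8.95 CPM in C57, at 3.85, 3.67 and 4.49 CPM in the controls and at 3.77, 4.35 and 5.25 CPM in Yap CKO (log2 -0.89 and -0.75), and the call in Yap CKO was lost without the unnumbered C57 library, Yap CKO 1 or Yap CKO 2 (adjusted p up to 0.105). Col8a1, a chain of the network collagen VIII, fell in both as well. It stood at 23.3, 18.8 and 28.3 CPM in C57, at 13.8, 11.01 and 17.9 CPM in the controls and at 18.5, 13.01 and 9.1 CPM in Yap CKO (log2 -0.75 and -0.84), and the call in Yap CKO passed in 1 of 6 fits with a library left out, the one without Yap CKO 1 (adjusted p up to 0.113 in the others). All P60 libraries were below all C57 libraries for both genes.

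Chains that assemble into the same protein were compared within each library. Col4a1 and Col4a2, which form the main collagen IV trimer and share a bidirectional start region on chromosome 8, kept a ratio of 0.767 to 0.954 per kb of exon over all 9 libraries. Their annotated transcripts start on opposite strands and overlap by 22 bases (chr8:11312805-11312826, GRCm38), shown here on the plus strand to mark how close the starts lie.
Col4a1 and Col4a2: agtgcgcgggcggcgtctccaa
How reads within the overlap were counted is not known, since the strand setting used in counting is not given in the sources used here.

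The minor collagen IV chains, which also lie head to head in pairs, changed in opposite directions between C57 and P60. Col4a4, the partner of Col4a3, stood at 8.55, 5.91 and 7.36 CPM in C57, at 2.56, 0.629 and 1.23 CPM in the controls and at 1.07, 1.07 and 0.908 CPM in Yap CKO, and fell by 2.34 on the log2 scale in control against C57 (adjusted p = 0.00372). Col4a5 stood at 7.12, 5.55 and 6.39 CPM in C57, at 26.1, 27.8 and 22.6 CPM in the controls and at 18.7, 20.8 and 22.6 CPM in Yap CKO, a rise of 1.98 from C57 to control (adjusted p = 7.51e-05). Col4a6, its neighbour on the X chromosome, rose by 2.46 (adjusted p = 6.28e-05). In each pair both chains were on the same side of C57 in all 6 P60 libraries.

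**Figure D4:**
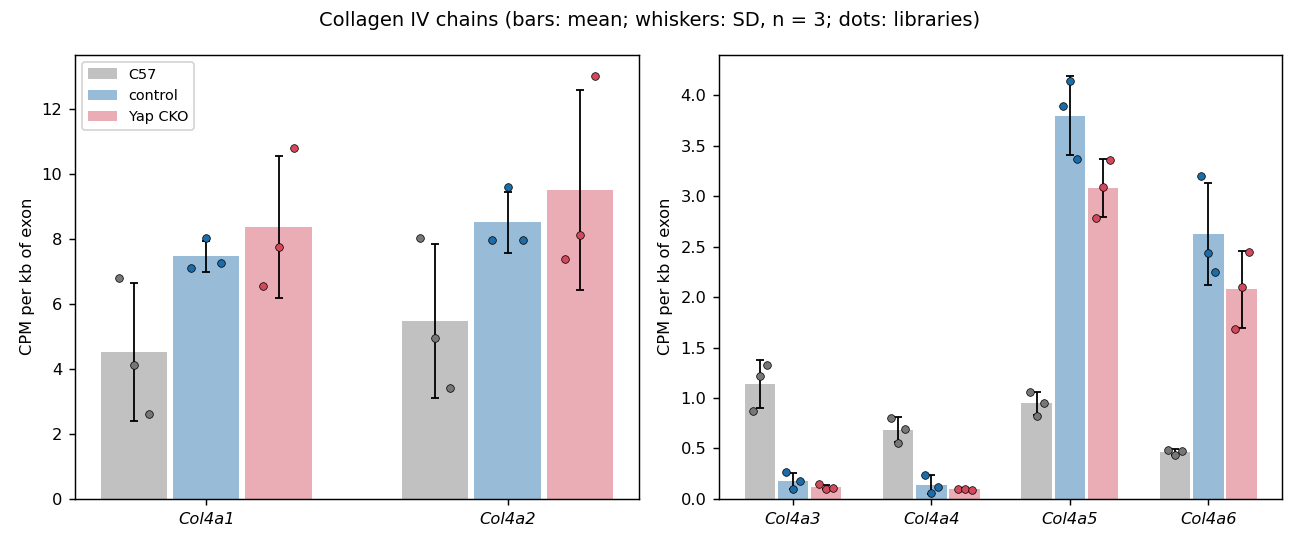
CPM per kb of exon of the 6 collagen IV chains by group, with bars for the mean, whiskers for the SD (n = 3) and dots for libraries. Col4a3 and Col4a4 are low at P60 and Col4a5 and Col4a6 are high, while Col4a1 and Col4a2 overlap between control and Yap CKO and are highest in 1 Yap CKO library.

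The collagen I chains did not keep a fixed ratio. Collagen I usually contains more alpha 1 than alpha 2 chains. Per kb of exon the ratio of Col1a2 to Col1a1 was 3.43 to 4.55 in C57, 19.4 to 77.7 in the controls and 5.09 to 9.83 in Yap CKO. Col1a1 was at 0.374 to 0.578 CPM in the controls, which is 14 to 23 reads, so the size of these ratios is imprecise. Its reads were as few in C57, at 10 to 18. Col1a2 was at 17.995 to 55.0 CPM in the controls, against 5.99 to 9.81 CPM in C57 and 7.93 to 11.3 CPM in Yap CKO. The length of Col1a2 used here, 12426 bases, is the union of all annotated exons, and it scales all 9 ratios alike. Lama5 per kb was 0.117 to 0.248 of Lamc1 in C57, 0.538 to 0.576 in the controls and 0.380 to 0.471 in Yap CKO, with no overlap between groups. Col3a1 and Col5a2, neighbours on chromosome 1 (45311538 to 45349706, plus strand, and 45374321 to 45503282, minus strand), were both lower in control than in C57.

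13 members passed in no comparison, among them Col4a1, Col4a2 and Agrn. Col6a1 and Col6a2, chains of the beaded-filament collagen VI, were between log2 -0.14 and 0.08 in Yap CKO against control. The others were the small proteoglycan biglycan (Bgn), Postn, the crosslinking enzyme Lox and the laminin chains Lama1, Lama2, Lama4, Lamb1 and Lamb2. Lox was at 0.459 to 0.988 CPM throughout, with 9 to 37 reads per library, so a small difference was not detectable at this depth.

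Genes that make, bind or accompany these proteins were counted from lists of their own. In Yap CKO against control edgeR called no gene of these lists at an adjusted p under 0.05. Of the 17 matrix receptors, 9 were lower at an unadjusted p under 0.05 (9.25% of all genes) and 9 were lower without overlap (12.2% of all genes). The median log2 fold change of the receptors was -0.28. Itgav, the integrin alpha V chain, which pairs with several beta chains to bind fibronectin and vitronectin, had the smallest p of them. It stood at 317, 251 and 271 CPM in the controls and at 164, 167 and 186 CPM in Yap CKO (log2 -0.70, SE 0.0967, adjusted p = 0.0515). Itga7, a laminin receptor, was at log2 -0.65 (adjusted p = 0.0908). The elastic-fibre proteins Fbln1 and Ltbp2 had larger differences (log2 -2.37 and -2.08, adjusted p = 0.102 and 0.125) and, as with Fbn1, were highest in control 1 and lowest in control 3 among the controls. The authors' deposited table gives an adjusted p of 6.59e-13 for Fbln1, 1.66e-07 for Ltbp2 and 0.0225 for Itgav. Fbln1 stood at 158, 121 and 56.9 CPM in the controls and at 21.5, 17.5 and 25.6 CPM in Yap CKO.

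In control against C57, 11 of 19 genes of collagen synthesis and folding rose and 3 fell, 11 of 17 matrix receptors rose and 2 fell, and 12 of 19 other proteoglycans and glycoproteins rose and 1 fell. Of 15 other collagens tested 5 rose and 4 fell. Over all genes tested in this comparison, 23.1% rose and 22.4% fell. Bmp1, the protease that trims procollagen, rose by log2 3.11 (adjusted p = 6.09e-05), the crosslinking enzyme Loxl1 by 2.65 (adjusted p = 2.38e-05) and the transglutaminase Tgm2 by 2.59 (adjusted p = 5.49e-05). The fibronectin receptor chain Itga5 rose by 2.40 (adjusted p = 8.5e-05). Col8a2, the partner chain of Col8a1, fell (log2 -1.65, adjusted p = 0.00177), as Col8a1 did. In Yap CKO against C57 the counts were 11 up and 1 down of 19 for synthesis, 9 and 2 of 17 for receptors, 8 and 1 of 19 for the other proteoglycans and 3 and 4 of 16 for other collagens. There, 20.3% of all genes tested rose and 20.2% fell.

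Promoter windows of 300 bases, from 250 before to 50 after the start, were given by RefSeq (GRCm38.p6) for 28 of the 41 members. They were searched on both strands for CATTCC, the core of the TEAD motif through which YAP acts, and for TGANTCA, a loose form of the AP-1 motif. N stands for any base. CATTCC was in a window of 4 of the 28 members (14.3%) and of 16.6% of all 27025 genes with a window. TGANTCA was in a window of Col6a1 alone (3.57%), against 8.97% of all genes. No window of a member held both motifs, and a match is a description of the sequence and not a site. The matches are shown with 10 bases on each side and the motif, or its reverse complement GGAATG, in capitals, 5′ to 3′ on the gene's strand. The stretches shown for Col18a1, Col6a2 and Col6a1 overlap annotated exons of the same gene, and those for Nid1 and Col3a1 overlap none. The Col18a1 window lies inside the annotated gene, which runs from 77052178 to 77166548 on chromosome 10.
Col18a1, chr10:77113794-77113819, minus strand: aggctgggttCATTCCcttctgccag
Col18a1, chr10:77113744-77113769, minus strand: ctgggaaccaGGAATGagggagggtg
Nid1, chr13:13437427-13437452, plus strand: ggttggatccGGAATGctgggaacca
Col3a1, chr1:45311360-45311385, plus strand: tcacaaagcaCATTCCtatgtgtttc
Col6a2, chr10:76623504-76623529, minus strand: tcccccagctCATTCCccagcttcat
Col6a1, chr10:76726118-76726144, minus strand: gctgatgctgTGACTCActcagctttg
Of the 4 members with CATTCC, Col18a1 was at log2 -1.16 in Yap CKO against control, Nid1 at 0.50, Col3a1 at 1.28 and Col6a2 at -0.14, and none passed the adjusted threshold. Lama5, which did, had no match in its window.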

How the data were processed

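Per the submitters' processing notes, reads were handled with HISAT2 2.1.0, featureCounts, edgeR and the build GRCm38. The strand setting and annotation release of the counting were not given in the sources used here. The deposited table holds whole-number read counts per Ensembl gene, not normalized. A separate deposited table of 305 genes gives the authors' own log2 fold changes, p-values and adjusted p-values; its 9 columns of values per library were not used. A C57 column whose number matches no sample was kept as the unnumbered C57 library. Symbols, positions and exon lengths came from GENCODE M21.

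Each comparison was fitted on its 6 libraries with edgeR 4.0.16 (R 4.3.3): filterByExpr (minimum count 10, minimum total 15), TMM scaling, robust quasi-likelihood F-tests, and Benjamini-Hochberg adjustment over all genes tested with a threshold of 0.05. edgeR is the source of each adjusted p unless another tool is named. The fits were tested on simulated counts. Levels are CPM over all 9 libraries; the mean log2 of a marker list used a pseudocount of 1. Libraries within a group differed beyond sampling noise. The members and gene lists were chosen with earlier results of these data known. Values per library are given for members called in Yap CKO against control, the 8 smallest p there and in control against C57, the highest member per length of each list, and, for other lists, up to 3 genes with the smallest p per comparison. The list of other laminin chains is not reported here. Others named to complete a protein or a pattern were chosen after their values were seen. Alternatives were RLE and upper-quartile scaling, no filter or 1 CPM in 3 libraries, DESeq2 1.42.0, limma-voom (limma 3.58.1), a fit of all 9 libraries, bias-adjusted deviances, a replicate block, rod level or sex as a covariate, and each library left out.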

Additional observations from a re-analysis of the deposited data

How the results depend on the processing

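With Yap CKO against control, the count of 1 lower member became 0 with RLE scaling, upper-quartile scaling, the filter of 1 CPM in 3 libraries, limma-voom, bias-adjusted deviances and sex as a covariate, 4 without a count filter, 9 with DESeq2 and 7 with rod level as a covariate. With all 9 libraries in 1 fit, the 1 lower member was Fbn1. Leaving out 1 library gave 0 to 7 lower members. The count of 0 higher members became 1 with DESeq2 and was 0 otherwise, with 3 members at an unadjusted p under 0.05 in edgeR. The sex covariate rests on Yap CKO 3 alone. Without C57 1, 18 members were higher in Yap CKO than in C57, and leaving out 1 library gave 9 to 18. The counts of control against C57 stayed between 16 and 24 higher and between 6 and 9 lower under the alternatives run. Depth limits the C57 values of Col15a1, Col16a1, Thbs2, Lox and Fbn2, each with at most 15 reads in any C57 library.

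Same-numbered control and Yap CKO libraries had deviations from their group means correlated at 0.53, -0.08 and 0.01 over genes. Differently numbered libraries ranged from -0.60 to 0.49. Deviations within a group of 3 depend on each other, so these values cannot show whether the numbers pair the libraries. With the replicate block, Yap CKO against control called 1 member lower, Lgals3, and none higher; control against C57 (numbered libraries 1 and 2 only) called 17 higher and 7 lower, and Yap CKO against C57 13 and 6, with Col8a1 and Loxl2 not among the 6.

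The sign of 55 single values changed under an alternative. None was of a member called in that comparison, and the largest of their log2 fold changes was 0.50 in size; the cause was not tested. In Yap CKO against control, sex as a covariate gave Col11a1 0.21, Lamb2 0.10, Hspg2 0.41, Agrn 0.10, Col6a1 -0.31 and Thbs2 -0.092, and upper-quartile scaling gave Agrn 0.0076. The replicate block gave Col6a1 -0.016, Bgn 0.0075 and Postn 0.063 in control against C57 and Lamb2 -0.26 in Yap CKO against C57, where Lama4 was 0.046 with upper-quartile scaling, 0.051 without a filter and 0.0042 with the CPM filter.

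With 1 library left out, the log2 fold changes whose sign changed had these ranges. In Yap CKO against control they were Col4a1 (-0.059 to 0.32), Col4a2 (-0.14 to 0.32), Col15a1 (-0.58 to 0.0397), Lama2 (-0.039 to 0.21), Lama4 (-0.17 to 0.33), Lamb1 (-0.0079 to 0.15), Nid1 (-0.12 to 0.81), Hspg2 (-0.79 to 0.051), Agrn (-0.11 to 0.019), Col6a1 (-0.046 to 0.24), Col8a1 (-0.36 to 0.14), Postn (-0.092 to 0.22) and Lox (-0.37 to 0.11). In control against C57 they were Lama1 (-0.034 to 0.25), Lama2 (-0.11 to 0.20), Bgn (-0.21 to 0.055) and Lox (-0.052 to 0.17). In Yap CKO against C57 they were Lama2 (-0.029 to 0.28), Lama4 (-0.34 to 0.16), Lamb2 (-0.093 to 0.60), Nid1 (-0.75 to 0.17), Bgn (-0.025 to 0.33) and Lox (-0.29 to 0.18).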
